A study of Mus musculus with 16 samples.

Results

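The 10 genes described here are Mlxipl, which encodes the transcription factor ChREBP, its partner Mlx, the ChREBP target Arrdc4, and 7 enzymes of the pentose phosphate pathway (G6pdx, Pgd, H6pd, Tkt, Taldo1, Rpia and Rpe). They were chosen by name from the 50559 gene symbols of the liver expression table, with earlier results of these data known but by a rule that uses no measured value. All 10 were among the 18335 genes with enough counts to be tested. Gene-level counts add the transcripts of a gene together, so the α and β forms of ChREBP could not be told apart.

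ChREBP is a sugar-sensing transcription factor of the liver. It pairs with MLX on E-box sequences and is known to raise the transcription of genes of glycolysis, fructose handling and fatty acid synthesis. The pentose phosphate pathway branches off glycolysis at glucose-6-phosphate. Its oxidative branch makes NADPH, which fatty acid synthesis and glutathione recycling consume, and its non-oxidative branch exchanges carbon between pentoses and the intermediates of glycolysis. Enzymes of the pathway, with the classical lipogenic genes, are among the genes that sugar feeding is known to raise in liver.

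The livers came from male C57BL/6J mice, 4 in each of 4 groups, which were 6 weeks old when the diets began and were kept on them for 10 weeks. The LFD group (a low-fat diet, called chow in the labels) and the HFD group (a high-fat diet) received luciferase control siRNA at 10 mg/kg every 2 weeks, with gavage of methylcellulose, over the last 4 weeks. The HFD + siRNA group received, on the same schedule, siRNA against ketohexokinase (KHK, the enzyme that phosphorylates fructose) at 20 mg/kg with the methylcellulose, while in the HFD + Inhib group the control siRNA was combined with the KHK inhibitor PF-06835919 at 15 mg/kg. The KHK siRNA carried GalNAc, a sugar tag that is taken up by hepatocytes, whereas the inhibitor reached the whole animal. The 2 siRNAs were thus given at different doses. The mice had saline or insulin injected shortly before the tissue was taken, and the labels do not say which mouse had which, so its part in any value was not tested. Each library came from a separate mouse, and the expected counts summed to 25572883 to 35125005 per LFD library, 24317111 to 35820234 per HFD library, 28942052 to 33514313 per HFD + siRNA library and 27704386 to 32245606 per HFD + Inhib library. The unit of all levels is CPM, the count as a share of the TMM-scaled library total.

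The starts of these genes in RefSeq (mouse build GRCm38.p6) are shown because MLX and ChREBP bind E-boxes. Each window holds the 250 bases before and the 50 bases after a start. The letters CACGTG, which read the same on both strands, were found in 3 of the 12 windows of the 10 genes, and in 7.15% of all 32851 promoters in the same table. All of the ChREBP module (Mlxipl, Mlx and Arrdc4) had a window with the match, and none of the 7 enzymes did. The match lay 98 bases before the start in Mlxipl (chr5:135089640-135089939, plus strand), 40 bases before it in Mlx (chr11:101087040-101087339, plus strand) and 193 bases before it in Arrdc4 (chr7:68749189-68749488, minus strand). The window of Mlxipl is that of the upstream start, where the β form is known to begin, 17001 bases from the other start (chr5:135106641-135106940, plus strand), whose window had no match. The 3 windows are printed 5′ to 3′ along the gene, with the E-box in capitals.
Mlxipl, upstream start: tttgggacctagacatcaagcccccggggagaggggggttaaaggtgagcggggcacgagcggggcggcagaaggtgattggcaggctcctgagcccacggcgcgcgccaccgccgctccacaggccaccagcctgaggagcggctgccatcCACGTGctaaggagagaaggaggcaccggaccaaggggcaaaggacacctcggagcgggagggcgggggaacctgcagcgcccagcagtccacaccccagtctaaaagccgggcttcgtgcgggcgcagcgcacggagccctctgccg
Mlx: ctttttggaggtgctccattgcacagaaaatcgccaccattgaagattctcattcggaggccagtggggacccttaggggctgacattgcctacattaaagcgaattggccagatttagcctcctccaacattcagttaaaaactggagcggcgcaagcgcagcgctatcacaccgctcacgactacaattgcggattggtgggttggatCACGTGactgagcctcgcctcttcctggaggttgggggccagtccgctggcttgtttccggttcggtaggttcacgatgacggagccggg
Arrdc4: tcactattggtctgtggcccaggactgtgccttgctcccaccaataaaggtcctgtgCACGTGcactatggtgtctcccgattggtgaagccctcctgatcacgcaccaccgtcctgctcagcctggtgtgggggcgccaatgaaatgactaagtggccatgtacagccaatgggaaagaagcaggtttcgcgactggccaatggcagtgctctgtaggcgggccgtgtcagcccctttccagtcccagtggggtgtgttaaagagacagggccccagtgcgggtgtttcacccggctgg
The longer paired form of the letters, CANGNG and CNCNTG with 5 bases between, was in none of the 12 windows and in 0.557% of all promoters. TGANNNNGC, the core letters of the antioxidant response element, searched on both strands, was in 6 of the 12 windows and in 41.3% of all promoters. A match of letters is a description of the sequence, and binding was not measured.

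Khk was read first as a check on the labels. The HFD + siRNA libraries had 11.8, 9.14, 18.1 and 11.5 CPM of Khk, against 251, 322, 233 and 251 CPM in the HFD libraries, and no library of the other groups came near them. The log2 fold change was -4.38 ± 0.23 (SE; adjusted p = 1.88e-08, quasi-likelihood test of edgeR, adjusted by Benjamini-Hochberg over all tested genes, as is every adjusted p here). The HFD + Inhib libraries, whose treatment is aimed at the enzyme and not at its mRNA, had 112, 152, 94.6 and 120 CPM. They lay below all LFD and HFD libraries as well, and relative to HFD the log2 fold change was -1.14 ± 0.20 (adjusted p = 0.000752).

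The calls among the 10 genes were counted in each comparison. In HFD versus LFD, 6 of the 10 passed an adjusted p of 0.05, where 18.4% of all tested genes passed. The count was 3 without LFD replicate 1 and 3 without HFD replicate 3, where the calls over all genes went from 3370 to 2147 and 2013, and these were 2001 without LFD replicate 3 and 2183 without HFD replicate 4. Of these, 4 were lower (Mlxipl, G6pdx, H6pd and Tkt, against 8.8% of all genes) and 2 higher (Arrdc4 and Rpe, against 9.58%). The HFD and LFD libraries did not overlap in 5 of the 10 genes and in 20.4% of all genes. In HFD + siRNA versus HFD none of the 10 passed, where 11.7% of all tested genes did, 5.2% higher and 6.55% lower. That share stood for 2154 genes, and 1100 to 1981 were called with 1 library left out (1100 without HFD replicate 3). The HFD + siRNA and HFD libraries overlapped in all 10 genes, and did not overlap in 20.6% of all genes. Of the 10, 3 had an unadjusted p under 0.05 in edgeR's test, and DESeq2 called 1, Arrdc4. The count was 1 without HFD replicate 1, HFD + siRNA replicate 1 or HFD + siRNA replicate 2. In HFD + Inhib versus HFD, 2 passed, Taldo1 higher and Arrdc4 lower (4 without HFD replicate 2), where 18.2% of all genes passed, 9.8% higher and 8.42% lower. In HFD + Inhib versus HFD + siRNA, 3 passed, all higher with the inhibitor (Pgd, Rpia and Rpe), where 33.8% of all genes passed, and 17.3% did so upward. The median log2 fold change of the 10 genes was -0.09, -0.09, 0.03 and 0.05 in these comparisons, beside -0.01, 0.02, -0.00 and -0.04 over all tested genes. The HFD libraries enter 3 of the 4 comparisons, which are therefore not independent of each other.

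**Figure D1:**
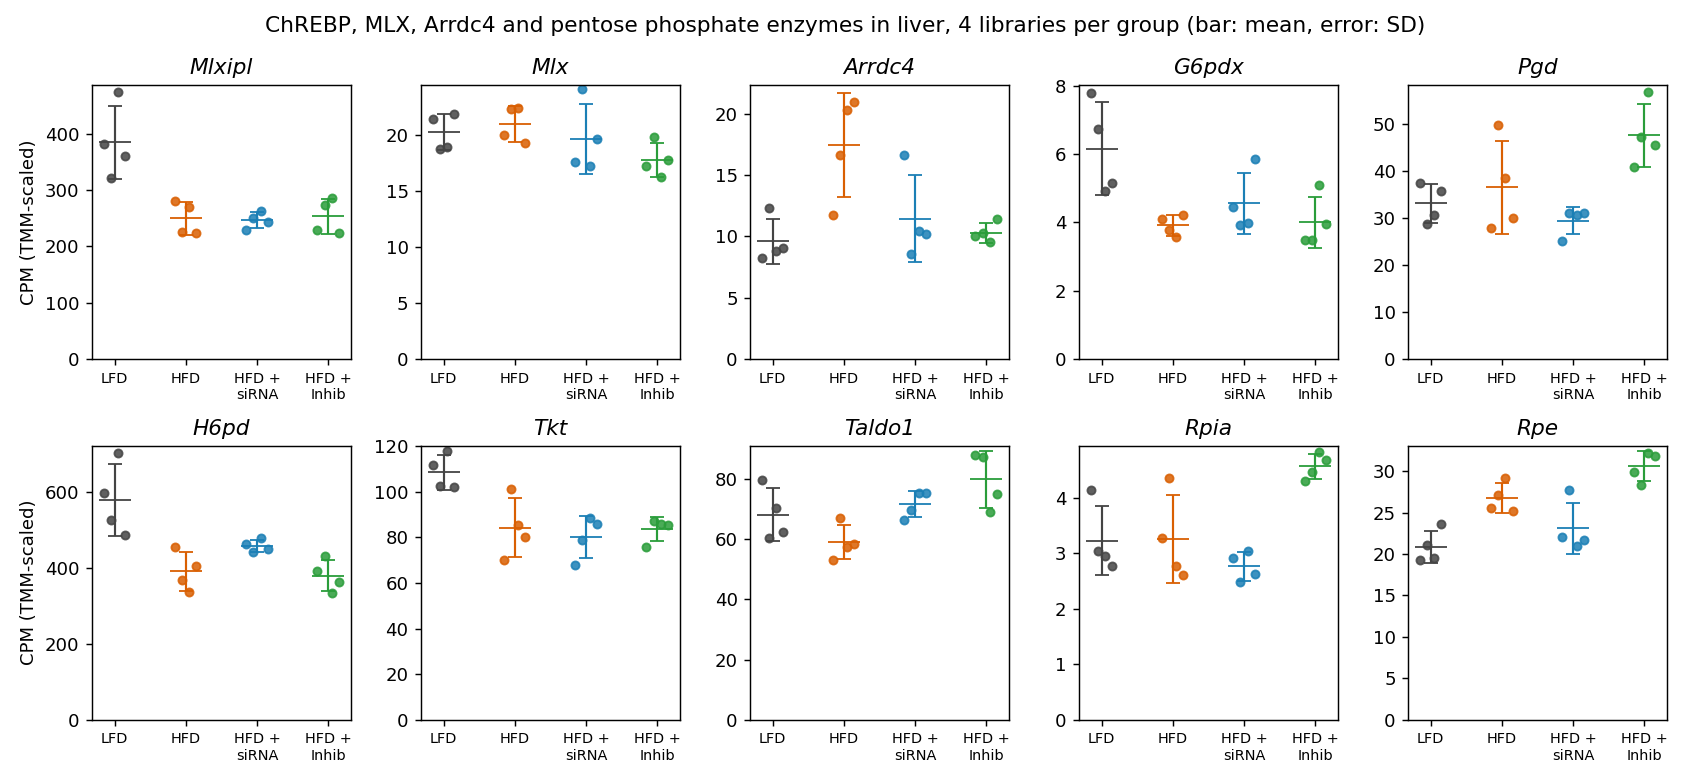
Level of each of the 10 genes in every liver library (CPM on the vertical axis, which starts at 0 in each panel), by group, with 4 libraries per group. Points are libraries, and the bar and error bar are the mean and SD. For Mlxipl, H6pd and Tkt all 12 libraries of the groups on HFD lie below the lowest LFD library, and for Rpia and Pgd all HFD + Inhib libraries lie above all HFD + siRNA libraries.

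The log2 fold changes also followed the GC content of the transcripts. Across 8342 genes with ample counts, which are no replicates of each other, their Spearman correlation with GC content was -0.51 for HFD versus LFD and 0.49 for the siRNA against HFD. For the inhibitor it was -0.28 against HFD and -0.53 against the siRNA. Transcript length and GC content were corrected together, so the part of GC content alone in single genes was not tested. The calls that this correction gained or removed are given beside each gene. With the correction, 3 of the 10 genes passed in HFD versus LFD in place of 6, and 3 in place of 2 in HFD + Inhib versus HFD, so that the diet no longer led by count.

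Mlxipl was lower in HFD than in LFD, and no treated library returned to the LFD range. Its LFD libraries had 382, 322, 474 and 361 CPM, the HFD libraries 281, 225, 270 and 224 CPM, the HFD + siRNA libraries 230, 250, 264 and 243 CPM and the HFD + Inhib libraries 230, 273, 287 and 224 CPM. The groups on HFD overlapped each other fully, and none of their 12 libraries reached the lowest LFD library. In HFD versus LFD the log2 fold change was -0.62 ± 0.12 (SE, adjusted p = 0.00317), a level 0.65 times that of LFD. This call held in all 15 other settings tried at the same threshold, with the GC and length correction giving -0.44 (adjusted p = 0.021). Neither treatment moved Mlxipl beyond the spread of the HFD libraries. Against HFD, the log2 fold change of the total mRNA was -0.02 (95% interval -0.28 to 0.24, adjusted p = 0.939) with the siRNA and 0.02 (-0.24 to 0.28, adjusted p = 0.936) with the inhibitor. With the GC and length correction these were -0.14 (adjusted p = 0.509) and 0.15 (adjusted p = 0.428), and the difference between the treatments was 0.29 (adjusted p = 0.0792) in place of 0.04. The uncorrected intervals leave room for a change of the total Mlxipl mRNA by up to about 0.28 on the log2 scale in either direction.

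Mlx, the obligate partner of ChREBP in DNA binding, passed in none of the 4 comparisons. Its group means were 20.2 ± 1.63 (SD, n = 4) CPM in LFD and 20.97 ± 1.60 in HFD. They were 19.6 ± 3.14 with the siRNA and 17.7 ± 1.52 with the inhibitor, and the libraries overlapped. Its log2 fold change was 0.05 (95% interval -0.17 to 0.28, adjusted p = 0.771) for the diet and -0.24 (-0.47 to -0.01, adjusted p = 0.136) for the inhibitor against HFD. Only the GC and length correction put the latter past the threshold, at -0.30 with an adjusted p of 0.0358. The ratio of Mlxipl to Mlx per kilobase of transcript was 10.4 ± 2.15 (SD, n = 4) in LFD, 6.49 ± 0.90 in HFD, 6.95 ± 1.10 with the siRNA and 7.80 ± 1.24 with the inhibitor.

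Arrdc4, an arrestin-domain protein related to TXNIP and a known target of ChREBP and its paralog MondoA, was higher in HFD, where Mlxipl was lower. In LFD the libraries had 8.26, 12.3, 8.78 and 9.06 CPM and the HFD libraries 11.8, 16.6, 20.3 and 20.99 CPM. HFD replicate 1 was the only HFD library within the LFD range. The level was 1.81 times that of LFD, with a log2 fold change of 0.86 ± 0.20 (SE, adjusted p = 0.00897), and the call held in all 15 other settings. The HFD + Inhib libraries had 10.0, 10.3, 9.52 and 11.5 CPM, all below the lowest HFD library and within the LFD range. Their log2 fold change against HFD was -0.75 ± 0.20 (SE, adjusted p = 0.0152) and was called in all 15 other settings. The HFD + siRNA libraries had 16.7, 8.56, 10.4 and 10.2 CPM, with replicate 1 among the HFD libraries and the other 3 below them. Here the log2 fold change was -0.60 ± 0.20 (SE, adjusted p = 0.0625). It was called by DESeq2 (-0.61, adjusted p = 0.0284), without HFD replicate 1 (-0.75, adjusted p = 0.025) and without HFD + siRNA replicate 1 (-0.85, adjusted p = 0.0118). The difference between the 2 treatments was -0.15 (95% interval -0.58 to 0.28, adjusted p = 0.589). The call in one and not in the other thus does not show that they differ, nor does the interval show that they are alike.

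G6pdx, the glucose-6-phosphate dehydrogenase of the cytosol that opens the oxidative branch, had a low level in all libraries. The LFD libraries had 7.80, 6.74, 4.93 and 5.14 CPM and the HFD libraries 4.11, 3.78, 3.57 and 4.22 CPM, without overlap. Its log2 fold change was -0.65 ± 0.18 (SE, adjusted p = 0.0198). The call was lost without LFD replicate 1 (-0.51, adjusted p = 0.0746), without HFD replicate 3 (-0.61, adjusted p = 0.06) and with the GC and length correction (-0.52, adjusted p = 0.0667). The HFD + siRNA libraries had 4.46, 3.93, 3.98 and 5.86 CPM and the HFD + Inhib libraries 3.498, 3.497, 5.08 and 3.96 CPM, both overlapping HFD. Their log2 fold changes against HFD were 0.22 (95% interval -0.16 to 0.60, adjusted p = 0.462) and 0.04 (-0.34 to 0.41, adjusted p = 0.923). In words of 50 bases, 6.46% of the G6pdx transcripts were shared with G6pd2, which averaged at most 0.0359 CPM in any group.

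H6pd, the related enzyme of the endoplasmic reticulum that joins the dehydrogenase with the lactonase step there, had the highest mean level per length of the 10 genes. The LFD libraries had 596, 526, 703 and 487 CPM and the HFD libraries 455, 368, 335 and 405 CPM. As for Mlxipl, no library of the 3 groups on HFD reached the lowest LFD library. The log2 fold change of HFD versus LFD was -0.56 ± 0.12 (SE, adjusted p = 0.00554), and it was called in all 15 other settings, at -0.38 (adjusted p = 0.0101) with the GC and length correction. The HFD + siRNA libraries had 463, 443, 478 and 448 CPM and the HFD + Inhib libraries 392, 431, 334 and 362 CPM. These 2 groups did not overlap, yet their difference of -0.27 (95% interval -0.53 to -0.02, adjusted p = 0.0941) did not pass, and it was -0.01 with the GC and length correction. Groups did not overlap in 32.4% of all genes in that comparison. Against HFD, the log2 fold change was 0.23 (-0.03 to 0.48, adjusted p = 0.24) with the siRNA and -0.04 (-0.30 to 0.21, adjusted p = 0.853) with the inhibitor.

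Pgd, the 6-phosphogluconate dehydrogenase that makes the second NADPH of the cytosolic branch, separated the 2 treatments. Its LFD libraries had 37.4, 28.6, 30.5 and 35.7 CPM and the HFD libraries 27.9, 49.7, 38.5 and 29.9 CPM. The diet groups overlapped, with a log2 fold change of 0.14 (95% interval -0.19 to 0.48, adjusted p = 0.568). The HFD + siRNA libraries had 25.1, 31.0, 30.6 and 30.9 CPM and the HFD + Inhib libraries 40.8, 47.3, 56.6 and 45.4 CPM. All 4 inhibitor libraries lay above all siRNA libraries, and the level was 1.62 times as high, with a log2 fold change of 0.69 ± 0.16 (SE, adjusted p = 0.00325) that was called in all 15 other settings. Against HFD, the inhibitor gave 0.38 (0.05 to 0.71, adjusted p = 0.11) and the siRNA -0.31 (-0.65 to 0.02, adjusted p = 0.217). HFD replicate 2, the highest HFD library for Pgd, also had the highest level of Tkt, Taldo1, Rpia and Khk in its group. Without it, Pgd was called in HFD + Inhib versus HFD (0.57, adjusted p = 0.0129).

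Pgls, the lactonase of the step between G6pdx and Pgd, passed in none of the 4 comparisons. Its levels averaged 20.3 ± 6.18 (SD, n = 4) CPM in LFD, 14.4 ± 1.88 in HFD, 19.6 ± 6.00 with the siRNA and 15.3 ± 2.91 with the inhibitor. The steps of the cytosolic oxidative branch had log2 fold changes in HFD versus LFD of -0.65 for G6pdx, -0.49 for Pgls (adjusted p = 0.155) and 0.14 for Pgd, and the differences between these genes were not tested. Per kilobase of transcript, the ratio of Pgd to G6pdx was 4.04 ± 0.90 (SD, n = 4) in LFD, 6.88 ± 2.23 in HFD, 4.82 ± 0.99 with the siRNA and 8.69 ± 0.78 with the inhibitor. The lowest inhibitor library, at 8.11, was above the highest LFD and HFD + siRNA libraries, at 5.05 and 5.73, and below the highest HFD library, at 9.57. For H6pd to G6pdx the group means of the ratio lay between 54.7 and 57.7, with library values spread from 36.7 to 79.7. Differences in these ratios were not tested.

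**Figure D2:**
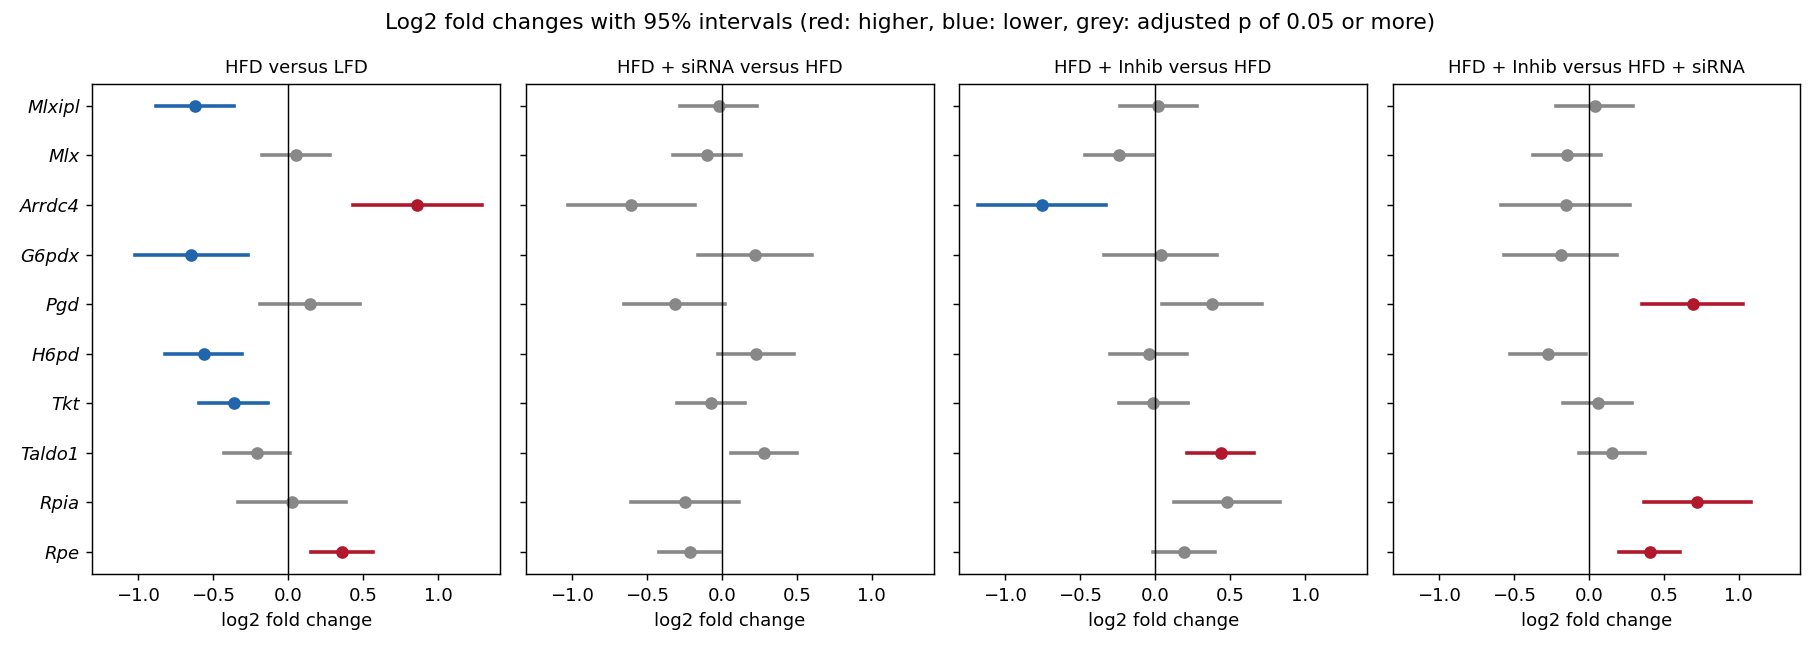
Log2 fold change of the 10 genes in the 4 comparisons (horizontal axis, 1 panel per comparison), from edgeR's quasi-likelihood fit of 16 libraries. Points are estimates and lines their 95% intervals, with red for genes called higher, blue for genes called lower and grey for an adjusted p of 0.05 or more. HFD versus LFD has 6 coloured genes and HFD + siRNA versus HFD none.

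Tkt encodes transketolase, which moves 2-carbon units in the non-oxidative branch. In LFD the libraries had 112, 103, 118 and 102 CPM, the HFD libraries 70.2, 101, 85.2 and 80.3 CPM, the HFD + siRNA libraries 67.7, 78.7, 88.3 and 85.8 CPM and the HFD + Inhib libraries 75.8, 87.2, 85.6 and 85.3 CPM. All 12 libraries on HFD were below the lowest LFD library, HFD replicate 2 by the least. The log2 fold change of HFD versus LFD was -0.36 ± 0.11 (SE, adjusted p = 0.0275), the call kept in the fewest settings. It was lost in 8 of 15 other settings, with adjusted p-values up to 0.151. Among them were the GC and length correction (-0.22, adjusted p = 0.151), no filter on low counts (adjusted p = 0.0531), a fit of the compared groups alone (adjusted p = 0.0605), and the fits without LFD replicate 1 (0.0788), LFD replicate 3 (0.0964), HFD replicate 1 (0.084), HFD replicate 3 (0.0618) or HFD replicate 4 (0.0879). The treatments gave -0.07 (95% interval -0.30 to 0.16) and -0.01 (-0.24 to 0.22) against HFD, with adjusted p-values of 0.716 and 0.955. Between the treatments it was 0.06, and 0.25 (adjusted p = 0.0676) with the GC and length correction.

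Taldo1 encodes transaldolase, the partner of transketolase that moves 3-carbon units, and it was called with the inhibitor. The HFD libraries had 53.3, 66.9, 57.6 and 58.3 CPM and the HFD + Inhib libraries 88.2, 87.4, 69.1 and 75.1 CPM, without overlap. The level was 1.35 times that of HFD, and the log2 fold change of 0.44 ± 0.11 (SE, adjusted p = 0.00817) was called in all 15 other settings. The HFD + siRNA libraries had 66.6, 69.7, 75.5 and 75.2 CPM, of which 1 lay within the HFD range, with a log2 fold change of 0.28 (95% interval 0.06 to 0.50, adjusted p = 0.0937) that fell to 0.09 with the GC and length correction. The LFD libraries had 79.7, 60.4, 70.3 and 62.6 CPM and overlapped the HFD libraries (-0.21, 95% interval -0.43 to 0.01, adjusted p = 0.18, and -0.07 with the GC and length correction). The 2 treatments differed by 0.16 (-0.07 to 0.38, adjusted p = 0.268), and by 0.32 (adjusted p = 0.00791) with the GC and length correction. As a share of the sequence, 6.67% of the Taldo1 words of 50 bases also occurred in Gm17823, so that some of its reads could have been divided between these genes. Per kilobase of transcript, the ratio of Tkt to Taldo1 was 0.676 ± 0.057 (SD, n = 4) in LFD, 0.601 ± 0.038 in HFD, 0.471 ± 0.028 with the siRNA and 0.447 ± 0.070 with the inhibitor. In both treated groups every library was below the lowest HFD library, at 0.557.

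Rpia, the ribose-5-phosphate isomerase that forms the precursor of nucleotides, had the lowest mean of the 10 genes per kilobase of transcript in each group, although with the inhibitor its libraries overlapped those of G6pdx, and its mean in CPM was above that of G6pdx there. The HFD libraries had 3.28, 4.37, 2.77 and 2.62 CPM, the HFD + siRNA libraries 2.91, 2.48, 3.03 and 2.64 CPM and the HFD + Inhib libraries 4.31, 4.47, 4.82 and 4.68 CPM. The LFD libraries, at 4.15, 3.05, 2.96 and 2.77 CPM, were also all below the inhibitor libraries, and of the HFD libraries only replicate 2 reached them. Between the treatments the log2 fold change was 0.72 ± 0.17 (SE, adjusted p = 0.00369), a level 1.65 times as high with the inhibitor, which was called in all 15 other settings. Against HFD, the inhibitor gave 0.48 ± 0.17 (SE, adjusted p = 0.057). This passed without HFD replicate 2 (0.66, adjusted p = 0.0115), with DESeq2 (adjusted p = 0.0443) and with a minimum of 10 counts in every library (adjusted p = 0.0483). The siRNA gave -0.24 (95% interval -0.61 to 0.12, adjusted p = 0.385), and the diet 0.03 (-0.33 to 0.38, adjusted p = 0.935).

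Rpe, the ribulose-phosphate epimerase that sends pentoses to transketolase, had the lowest GC content of the 10 genes (39.2%, against a median of 49.2% over genes with a value). The LFD libraries had 19.3, 21.03, 19.5 and 23.6 CPM, the HFD libraries 25.6, 27.2, 29.2 and 25.2 CPM, the HFD + siRNA libraries 22.0, 27.7, 20.9 and 21.7 CPM and the HFD + Inhib libraries 29.9, 28.3, 32.2 and 31.8 CPM. LFD did not overlap HFD, and HFD + siRNA did not overlap HFD + Inhib. The log2 fold change was 0.36 ± 0.10 (SE, adjusted p = 0.0183) in HFD versus LFD and 0.41 ± 0.10 (adjusted p = 0.0043) between the inhibitor and the siRNA. With the GC and length correction they were 0.04 (adjusted p = 0.749) and -0.06 (adjusted p = 0.524), so neither call of Rpe held with that correction. The part of GC content alone in this was not tested. The call in HFD versus LFD was also lost without LFD replicate 1 (0.33, adjusted p = 0.056), LFD replicate 3 (0.33, adjusted p = 0.061) or HFD replicate 3 (0.32, adjusted p = 0.0637). Against HFD, the log2 fold change was -0.21 (95% interval -0.42 to -0.01, adjusted p = 0.167) with the siRNA, called only without HFD + siRNA replicate 2 (-0.33, adjusted p = 0.0259), and 0.19 (-0.01 to 0.40, adjusted p = 0.19) with the inhibitor.

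**Figure D3:**
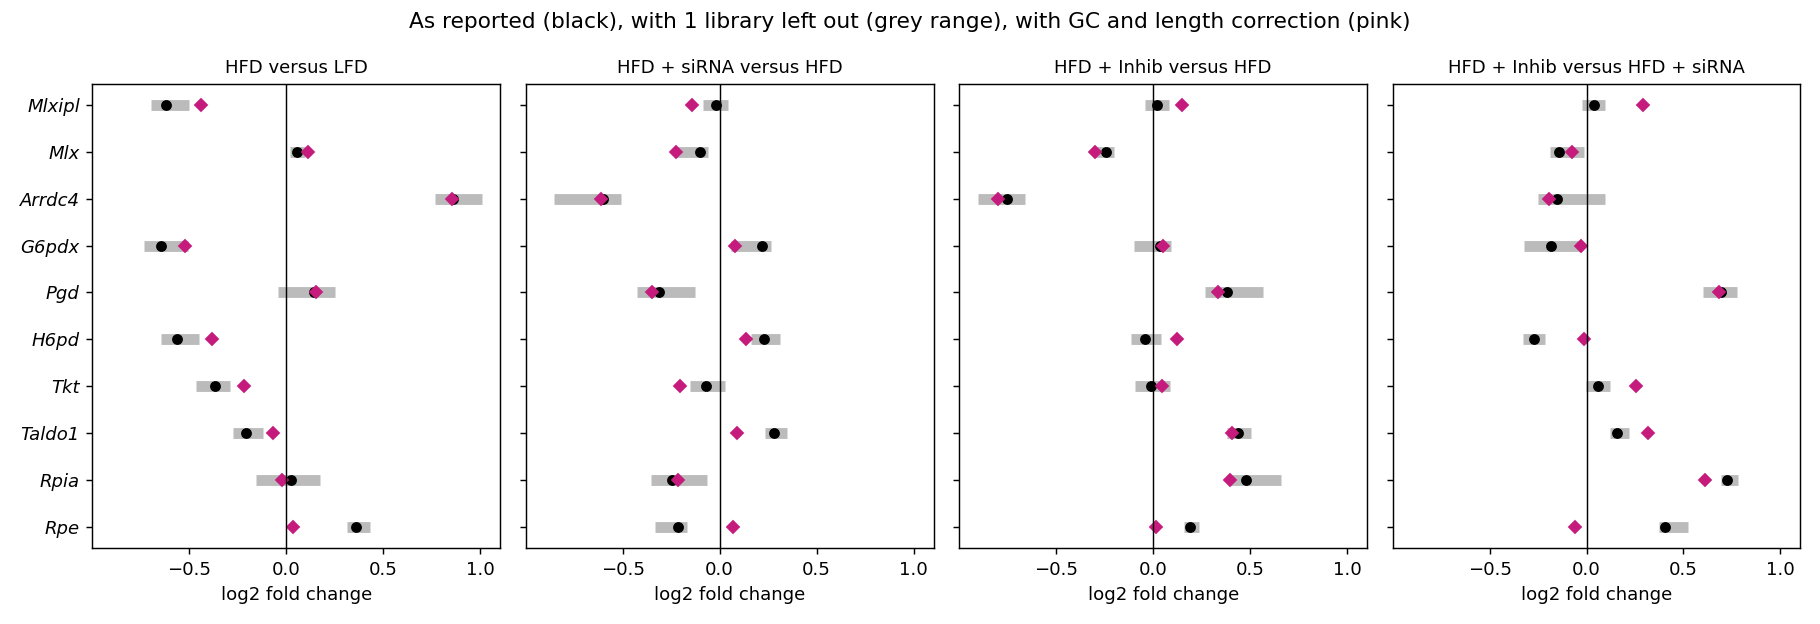
Log2 fold change of the 10 genes in the 4 comparisons (horizontal axis) as reported (black points), the range over fits that each left out 1 library (grey bars) and with transcript length and GC content corrected (pink diamonds). The diamonds of Rpe lie near 0 in all 4 panels, while those of Arrdc4, Pgd and Rpia lie near the black points.

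Levels of different genes can be set side by side only per length, and only if the counts come from reads along transcripts. Per kilobase of the longest transcript, the LFD means ran from 122 CPM for H6pd and 106 for Mlxipl through 50.1 for Taldo1, 33.7 for Tkt, 10.3 for Mlx, 9.08 for Pgd and 7.66 for Rpe to 2.46 for Arrdc4, 2.32 for G6pdx and 0.886 for Rpia. In LFD the libraries of H6pd and Mlxipl, of Mlx and Pgd, of Pgd and Rpe, and of Arrdc4 and G6pdx overlapped, so the order of these neighbours did not exceed their spread. The 4 most abundant genes were in the same order in all groups. Arrdc4 did not overlap G6pdx in HFD, at 4.46 ± 1.08 (SD, n = 4) against 1.48 ± 0.11, nor with the inhibitor, at 2.64 ± 0.21 against 1.51 ± 0.28, and Pgd and Rpe moved above Mlx in HFD + Inhib.

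**Figure D4:**
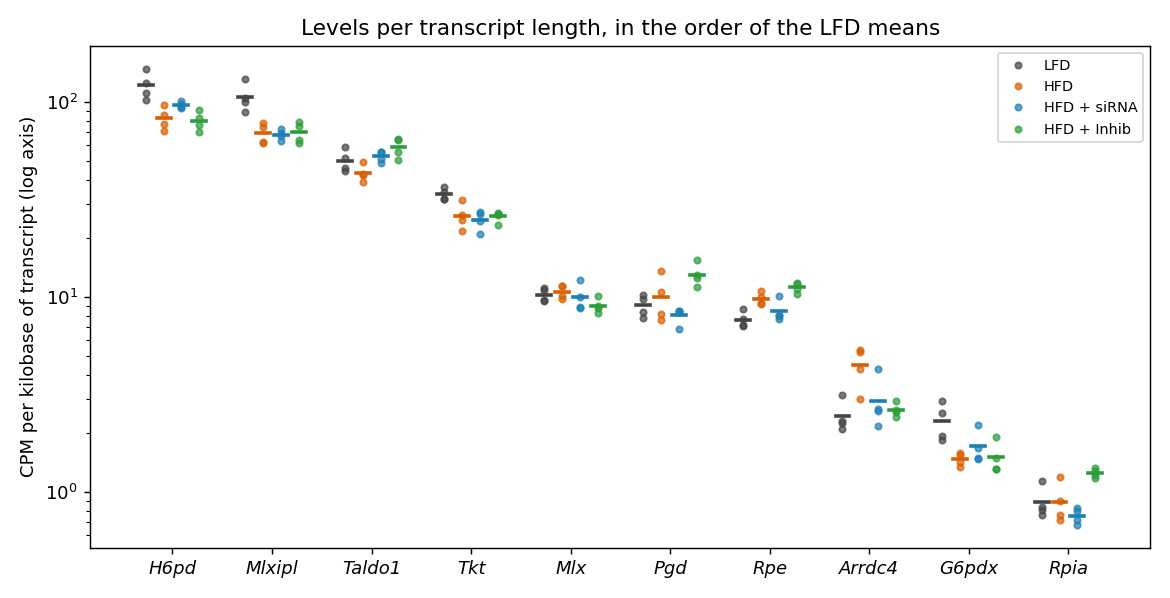
Level of the 10 genes per kilobase of transcript (CPM per kilobase, log axis), in the order of the LFD means. Points are the 4 libraries of each group and bars the group means. The order runs from H6pd at 122 in LFD to Rpia at 0.886, and Arrdc4 is highest in HFD.

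The genes around ChREBP and the pathway were read as lists of known function. Of 20 other genes known as ChREBP targets (glycolysis, fructose handling and lipid synthesis), 2 were higher and 1 lower in HFD versus LFD, with a median log2 fold change of 0.12, where 9.58% of all tested genes were higher and 8.8% lower. In HFD + siRNA versus HFD, 10 were lower and none higher, with a median of -0.77, where 6.55% of all tested genes were lower. In HFD + Inhib versus HFD, 3 were higher and 4 lower, with a median of 0.12, beside 9.8% and 8.42% of all genes. The counts with the GC and length correction were 3 and 1, 0 and 11, and 4 and 4, higher and lower in that order. Between the treatments, 10 were higher and 4 lower with the inhibitor, with a median of 0.82, beside 17.3% and 16.6% of all genes, so that the share of lower targets was near that of all genes. Several of these genes are also known targets of SREBP1, and the list overlaps the lipogenic genes that the study examined on these livers, so its counts are not independent evidence of a direction.

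The targets called with the siRNA were led by Pnpla3, a lipase of lipid droplets (-2.77), Scd1, the stearoyl-CoA desaturase (-2.01), Acacb, the acetyl-CoA carboxylase of mitochondria (-1.70), and Fasn, the fatty acid synthase (-1.68). The 95% interval of Pnpla3, -4.46 to -1.08, held the values of Scd1, Acacb and Fasn. Its level was 2.33 ± 1.93 (SD, n = 4) CPM in HFD and 0.346 ± 0.044 with the siRNA. Fasn averaged 1695 ± 803 (SD, n = 4) CPM in HFD, 529 ± 86.0 with the siRNA and 1598 ± 164 with the inhibitor, with a log2 fold change against HFD of -0.09 for the latter (95% interval -0.61 to 0.44, adjusted p = 0.858). Acacb had 104 ± 34.8 CPM in HFD against 32.1 ± 5.34 with the siRNA and 294 ± 37.7 with the inhibitor, and all 3 groups were free of overlap. Pklr, the pyruvate kinase of liver and a classical ChREBP target, fell with both treatments. It had 269 ± 59.0 CPM in HFD, 110 ± 15.7 with the siRNA (log2 fold change -1.29, adjusted p = 0.00277) and 70.8 ± 20.1 with the inhibitor (-1.93, adjusted p = 3.15e-05). With the inhibitor, Tkfc, the triokinase that follows KHK, fell too (-1.33, adjusted p = 3.19e-05). Scd1 moved in opposite directions with the treatments. It had 8635 ± 2817 (SD, n = 4) CPM in HFD, 2146 ± 465 with the siRNA and 16710 ± 3323 with the inhibitor, a log2 fold change against HFD of 0.95 (adjusted p = 0.0178) for the latter without overlap. Between the treatments the largest changes among the targets were those of Acacb (3.19), Scd1 (2.96), Pnpla3 (2.85) and Me1 (2.48). Pnpla3 was scarce and uneven, with 0.247, 0.816, 6.57 and 2.37 CPM in the inhibitor libraries against 0.293 to 0.384 with the siRNA, so that these groups overlapped. Fgf21, a hormone of the liver, was higher in HFD versus LFD (2.26, adjusted p = 0.00577), as was Elovl6, a fatty acid elongase (0.72, adjusted p = 0.0482), whereas Acacb was lower, from 241 ± 23.7 (SD, n = 4) CPM in LFD to 104 ± 34.8 in HFD (-1.21, adjusted p = 0.000532).

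Txnip, the closest relation of Arrdc4 on the list and a target of the same factors, had the opposite sign with the inhibitor against HFD. Txnip averaged 118 ± 69.4 (SD, n = 4) CPM in LFD, 99.8 ± 18.6 in HFD, 81.8 ± 7.15 with the siRNA and 179 ± 25.7 with the inhibitor. Its log2 fold change with the inhibitor was 0.84 (95% interval 0.23 to 1.45, adjusted p = 0.053) against HFD, where that of Arrdc4 was -0.75, and 1.13 (adjusted p = 0.00697) against HFD + siRNA. In HFD versus LFD the log2 fold change was -0.25 (adjusted p = 0.589) for Txnip and 0.86 for Arrdc4. With the siRNA against HFD both genes were below 0, at -0.29 (adjusted p = 0.566) and -0.60, and neither passed in edgeR's test. The difference between the 2 genes was not tested.

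**Figure D5:**
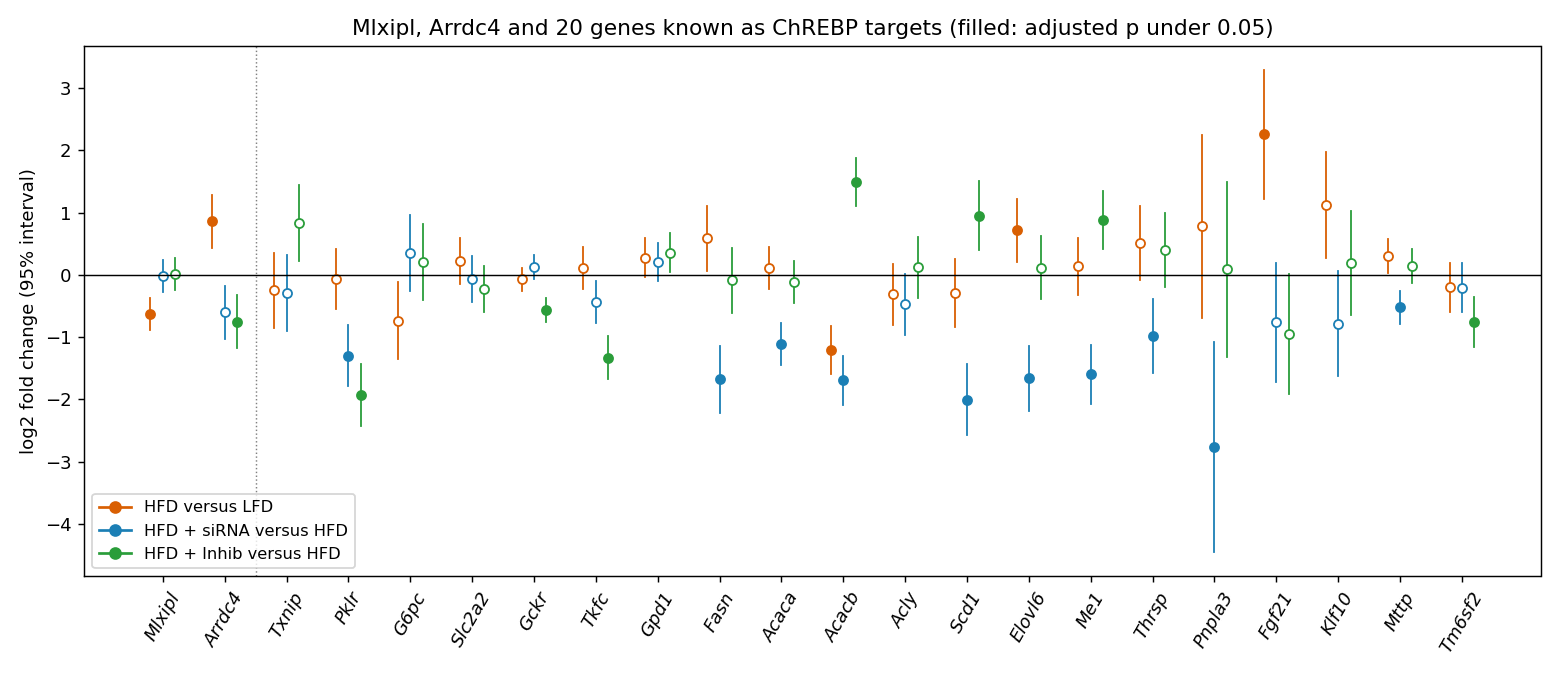
Log2 fold change (vertical axis) of Mlxipl, Arrdc4 and the 20 ChREBP targets in 3 comparisons, with 95% intervals. Filled points passed an adjusted p of 0.05. With the siRNA 10 targets are filled, all below 0. With the inhibitor 4 are filled below 0, among them Pklr and Tkfc, and 3 above it, Acacb, Scd1 and Me1.

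The other members of the MLX network, transcription factors that share MLX or MAX as partners, numbered 9, all tested. Mlxip, which encodes MondoA, was the only call of edgeR's test in HFD versus LFD (-0.38 ± 0.12, SE, adjusted p = 0.0372), where DESeq2 called 2 of the 9, and no call was left in that comparison with the GC and length correction. It had 16.5 ± 1.30 (SD, n = 4) CPM in LFD and 12.7 ± 2.19 in HFD. None passed with the siRNA in edgeR's test (2 with an unadjusted p under 0.05, none called by DESeq2), and the correction gave 1 call. With the inhibitor, Myc, a growth-promoting factor, was higher than in HFD (0.94, adjusted p = 0.0441) and Mxd4, a repressor of the network, lower (-0.49, adjusted p = 0.0387). Between the treatments Myc was higher with the inhibitor (1.08, adjusted p = 0.0134), and Mxd1 (-0.62, adjusted p = 0.00201) and Mxd4 (-0.56, adjusted p = 0.0119) were lower. These counts of 1, 0, 2 and 3 of 9 stand beside 18.4%, 11.7%, 18.2% and 33.8% of all tested genes.

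Of 11 further genes of the pentose phosphate pathway and of ribose use, 8 were tested, and Tktl1, Tktl2 and G6pd2 were not because their counts were at or near 0. Prpsap1, a regulator of phosphoribosyl pyrophosphate synthesis, was the only call of edgeR's test in HFD versus LFD (-0.37 ± 0.10, SE, adjusted p = 0.0206) and the only one between the treatments (-0.37, lower with the inhibitor, adjusted p = 0.0104). In the former comparison the GC and length correction left no call. Prps2, a synthetase of the same step, was the only call in HFD + Inhib versus HFD (-0.48, adjusted p = 0.0151), where the correction gave 2, both lower. None passed with the siRNA in edgeR's test (2 with an unadjusted p under 0.05, none called by DESeq2). The shares of all genes called were 18.4% for the diet, 18.2% for the inhibitor, 11.7% for the siRNA and 33.8% between the treatments, so that 1 of 8 was no larger a share than over all genes.

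Among 8 other suppliers of NADPH, Me1, the malic enzyme of the cytosol and itself a ChREBP target, was called with both treatments, in opposite directions. It averaged 243 ± 23.3 (SD, n = 4) CPM in LFD, 266 ± 101 in HFD, 88.1 ± 20.1 with the siRNA and 493 ± 99.7 with the inhibitor. The log2 fold change against HFD was -1.60 (adjusted p = 6e-04) with the siRNA and 0.89 (adjusted p = 0.00974) with the inhibitor, and 2.48 (adjusted p = 1.24e-06) between them. Idh1, the isocitrate dehydrogenase of the cytosol, was higher with the inhibitor than in HFD (0.45, adjusted p = 0.00766) and was at -0.21 (adjusted p = 0.219) with the siRNA. The folate enzymes Mthfd1 (-0.39, adjusted p = 0.00354) and Aldh1l1 (-0.50, adjusted p = 0.00709) were lower in HFD versus LFD. Both were higher with the siRNA than in HFD (0.25, adjusted p = 0.0461, and 0.40, adjusted p = 0.0316), calls that the GC and length correction took away. Nnt, the transhydrogenase of mitochondria in which C57BL/6J mice carry a known deletion, was higher in HFD versus LFD (0.30, adjusted p = 0.0471) and with the inhibitor (0.37, adjusted p = 0.0154).

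Of 9 antioxidant genes whose enzymes are tied to NADPH, 3 were lower and none higher in HFD versus LFD, where 8.8% of all tested genes were lower. Against HFD, 1 was higher with the siRNA (5.2% of all genes) and 3 with the inhibitor (9.8%). The GC and length correction left 2 lower with the diet, and gave 1 higher with the siRNA and 4 with the inhibitor. Gsr, the glutathione reductase, was called in these comparisons before the correction. It had 71.3 ± 6.01 (SD, n = 4) CPM in LFD, 47.8 ± 3.14 in HFD, 61.7 ± 5.01 with the siRNA and 78.6 ± 4.74 with the inhibitor. Its log2 fold changes were -0.58 (adjusted p = 0.000439), 0.37 (adjusted p = 0.011) and 0.72 (adjusted p = 2.13e-05). Blvrb, a biliverdin reductase, was lower in HFD versus LFD (-0.48, adjusted p = 0.00403) and higher with the inhibitor (0.35, adjusted p = 0.0179), while Txnrd2 was lower in the former (-0.39, adjusted p = 0.0433) and Cat, the catalase, higher in the latter (0.39, adjusted p = 0.00565). Between the treatments Gsr (0.35, adjusted p = 0.00435) and Txnrd3 (0.39, adjusted p = 0.0326) were higher with the inhibitor.

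Markers of the cell types of liver were read beside these values. In bulk tissue, fewer cells of a type and less RNA per cell cannot be told apart. The 8 hepatocyte markers, led by Alb, summed to 80471 ± 7807 (SD, n = 4) CPM in LFD, 71359 ± 7504 in HFD, 74851 ± 5369 with the siRNA and 47303 ± 1263 with the inhibitor, where every library was below those of the other groups. In HFD versus LFD, 2 of the 8 were lower (Apoa1, -0.50, and Serpina1a, -0.54) and none higher, beside 8.8% and 9.58% of all genes. Against HFD 3 of the 8 were lower with the inhibitor and none higher, beside 8.42% and 9.8% of all genes. Against HFD + siRNA 5 were lower and 1 higher, beside 16.6% and 17.3%. Alb alone averaged 50980 CPM in HFD and 29925 with the inhibitor. The means of Cyp2e1 (5284 and 6323 CPM) and Tat (623 and 735 CPM) were higher with the inhibitor than in HFD. The 12 macrophage markers, led by Clec4f, summed to 318, 305, 360 and 235 CPM in the same order of groups, and 7 were lower in HFD + Inhib versus HFD + siRNA, beside the same 16.6%. Against HFD, 3 of the 12 macrophage markers and 3 of 7 tested lymphocyte markers were lower with the inhibitor, beside 8.42% of all genes. The 8 stellate cell markers, led by Reln, summed to 289, 355, 393 and 280 CPM, and the 7 endothelial markers, led by Stab2, to 365, 317, 355 and 303 CPM. With the inhibitor against HFD, 2 of the 8 stellate cell markers were lower and 1 of the 7 endothelial markers was higher. The shares of all genes were 8.42% lower and 9.8% higher. The 6 erythroid markers, led by Hbb-bs, summed to 768, 581, 609 and 526 CPM, and the 6 bile duct markers, led by Spp1, to 34.2, 38.4, 36.4 and 37.2 CPM. In HFD versus LFD, 1 marker each of stellate cells (Reln), macrophages (Gpnmb) and bile ducts (Spp1) was called higher and none lower. The median log2 fold changes of these lists were 0.055, -0.05 and -0.58, beside -0.01 over all tested genes. Stellate cell markers ranged from -1.95 for Acta2 to 0.62 for Rgs5, and neither passed. Gpnmb was scarce, at 0.278 CPM in LFD and 0.847 in HFD. The other bile duct markers were all below 0 without passing (Krt19 -2.60, Cldn7 -1.21, Krt7 -0.76, Epcam -0.40 and Sox9 -0.08). Markers of neutrophils (2.59 to 3.48 CPM) and of lymphocytes (1.999 to 4.90 CPM) were scarce. The 5 adipocyte markers summed to 0.952, 2.87, 7.43 and 34.6 CPM. Most of it was Cfd, at 0.523, 2.59, 7.38 and 34.5 CPM, which was the only one tested and rose with the inhibitor against HFD (log2 fold change 3.67, adjusted p = 0.000315). The other adipocyte markers were near 0 and did not share that rise. Adipoq had 0.177, 0.0642, 0.0353 and 0.0393 CPM, and Plin1 0.161, 0.0578, 0.0160 and 0.00883 CPM. Retn had 0.0904 CPM in LFD and 0.0075 with the inhibitor, and Lep was found in HFD only, at 0.135 CPM. Cfd was also higher in HFD versus LFD (2.29, adjusted p = 0.0339), and was at 1.45 (adjusted p = 0.103) with the siRNA against HFD. No marker was at 0 in all libraries. The part of these cell types in the values of the 10 genes was not tested.

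The genes whose levels ran most like those of Mlxipl, Arrdc4, G6pdx and Tkt were sought over 16 libraries among 8699 well-expressed genes. These correlations (Pearson r of log2 CPM) are descriptions, since the libraries share groups, depth and the GC trend. For Mlxipl they included Zfp646 (r = 0.892), Rilp, Itih5 and Asap2 (r = 0.877), and for Arrdc4 they were Dmd (r = 0.834), Pacsin2, Samd9l, Amot and Rab23. For G6pdx they were Zbtb5 (r = 0.899), Spaca6, Tnfaip2, Nid2 and Baz2a, and for Tkt they were Bin1 (r = 0.904), Atf4, Reep5, Lamc1 and Atg16l2. None of the 10 genes was among these, but G6pdx and Rpia lay below the minimum level of the search and could not have been found. These orders rest in part on the differences between groups. After the group means were removed, the genes closest to Mlxipl were Naa80 (r = 0.884), Polr2i and Thpo, and those closest to Arrdc4 were Cadm1 (r = 0.839) and Cers6, while Itih5 fell to 0.423 for Mlxipl, Rab23 to 0.48 for Arrdc4 and Atg16l2 to 0.461 for Tkt. For G6pdx, Spaca6 (0.84) and Zbtb5 (0.774) stayed among the closest 5. Between members, r was -0.875 for H6pd and Rpe (-0.697 after the group means were removed), 0.807 for Pgd and Rpia (0.511), 0.762 for Mlxipl and H6pd (0.437) and -0.522 for Mlxipl and Arrdc4 (-0.518). Others changed more when the group means were removed, from 0.734 to 0.168 for Mlxipl and Tkt and from 0.209 to 0.764 for Pgd and Tkt, and the pairs named here were chosen from all pairs of the 10 genes after their values were seen.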

How the data were processed

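Liver RNA of 16 mice was measured in 4 libraries per group, assigned by the deposited labels. The authors deposited expected counts per gene symbol, as RSEM estimates them, unscaled, and 15.1% of the values were not whole numbers. The submitters' processing notes name STAR, RSEM and mm39. Their versions and the annotation are not given in the sources used here. The paper's methods name HTG EdgeSeq, a probe assay that does not match such counts, so the assay is uncertain. Statements on GC content, shared sequence, levels per kilobase and ratios between genes hold for reads along transcripts only.

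Counts were rounded. Genes were filtered by filterByExpr (minimum count 10, minimum total 15), which left 18335 of 33460 genes with any count, scaled by TMM (factors 0.929 to 1.09), and tested in a single edgeR quasi-likelihood fit of all 16 libraries (dispersion 0.038), with Benjamini-Hochberg adjustment and a threshold of 0.05. R 4.3.3, edgeR 4.0.16, limma 3.58.1, DESeq2 1.42.0 and Python 3.11.15 were used, and the scripts were tested on simulated data. For HFD versus LFD the main fit recovered 63.6% of simulated 2-fold changes and 21.4% of 1.5-fold changes. With a simulated GC trend it recovered 39.4% and 5.05%. A gene that was not called is thus not shown to be unchanged. Lengths, GC content and shared words of 50 bases came from GENCODE M21, and promoter sequences from RefSeq (GRCm38.p6), a build other than that of the counts. GC content and length were corrected with splines of 5 degrees of freedom over genes of average log2 CPM of at least 3, for the 15858 tested genes with values (86.5%). Likeness used the same minimum and a prior count of 2. For p-values, the libraries of different mice are the replicates. Within groups, 24 library pairs had a chi-square per gene of 20.5 to 152, so none was a repeat.

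The members, lists and tests were chosen with earlier results of these data known, although the rule for the members names genes and uses no measured value. Named genes are the 10 members, Khk, up to 4 called genes per list and comparison with the largest change (lists of cell type markers are mostly given by their sums), and Txnip, Pklr, Fasn, Mlxip, Pgls, Me1 and Idh1. Alternatives were DESeq2, RLE scaling, no filter, 10 counts in every library, the compared groups alone, the replicate number as a block, an adjusted p under 0.01, the correction above, and each library left out (8 fits per comparison). Counts of list genes with the correction were added after the data were seen. A ChREBP target and a gene of like pattern are not reported here.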

Additional observations from a re-analysis of the deposited data

Results flagged for a closer look

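In each group of 4 libraries, the gap between the extreme library and its nearest neighbour was set against the range of the group, for the 10 genes and Khk. Of 44 groups, 3 had a share above Dixon's critical value of 0.829, and chance flags about 1 in 20. Pgd in HFD + siRNA replicate 1 was low, at 25.1 CPM against 30.6 to 31.0 CPM in the other libraries (share 0.939). Tkt in HFD + Inhib replicate 1 was low, at 75.8 CPM against 85.3 to 87.2 CPM (0.834). Rpe in HFD + siRNA replicate 2 was high, at 27.7 CPM against 20.9 to 22.0 CPM (0.834).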

How the results depend on the processing

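Over the 10 genes and Khk in 4 comparisons, 660 values were recomputed under other settings. Of these, 603 kept their direction and side of the threshold, 15 lost a call, 10 gained one and 32 changed sign, and the cause was not tested. Counts of called genes in HFD versus LFD, HFD + siRNA versus HFD, HFD + Inhib versus HFD and HFD + Inhib versus HFD + siRNA were 3370, 2154, 3339 and 6204. An adjusted p under 0.01 gave 1287, 689, 1733 and 3711, and left 3 of the 10 genes in the first comparison and 1 in the third. The GC and length correction left 3 of the 10 in the first, and DESeq2 called 1 in the second. With 1 library left out, 2001 to 3691 genes and 3 to 6 of the 10 were called in the first comparison, 1100 to 1981 genes and 0 to 1 in the second, and 2 to 4 of the 10 in the third. The 3 of the 10 came without LFD replicate 1 or HFD replicate 3. The samples share only a replicate number. Libraries with the same number had correlated deviations over 0.1 in 12 of 24 pairs (r from -0.345 to 0.482). The replicate block changed no call, gave 3299, 2080, 3341 and 6197 called genes, and turned Khk in HFD versus LFD from -0.01 to 0.0038.

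Signs turned only in values that had not passed, except for Rpe in HFD + Inhib versus HFD + siRNA (-0.0588 with the GC and length correction). That correction also turned, in HFD versus LFD, Rpia (-0.0233) and Khk (0.1987), Rpe in HFD + siRNA versus HFD (0.0716), and H6pd (0.1233) and Tkt (0.0486) in HFD + Inhib versus HFD. A minimum of 10 counts in every library put Khk at 0.0053 in HFD versus LFD. With 1 library left out, log2 fold changes in HFD versus LFD ran from -0.1537 to 0.1736 for Rpia, -0.0418 to 0.2536 for Pgd and -0.1216 to 0.1529 for Khk. In HFD + siRNA versus HFD they ran from -0.0854 to 0.0415 for Mlxipl and -0.1502 to 0.0287 for Tkt. In HFD + Inhib versus HFD they ran from -0.0439 to 0.0812 for Mlxipl, -0.099 to 0.0926 for G6pdx, -0.1143 to 0.0388 for H6pd and -0.0908 to 0.0875 for Tkt. In HFD + Inhib versus HFD + siRNA they ran from -0.0243 to 0.0976 for Mlxipl, -0.2521 to 0.0951 for Arrdc4 and -0.0029 to 0.1191 for Tkt. How far depth limits single genes was not tested.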
